A study of Aspergillus oryzae with 8 samples.

Results

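Dithiothreitol (DTT) was compared with no treatment in mycelium of Aspergillus oryzae RIB40 growing on an agar surface. The comparison used 4 of the 8 RNA-seq libraries of the series, 2 labelled as solid culture under ER stress and 2 as solid culture control, chosen by these titles alone. The other 4 libraries are the same treatment and its control in shaken liquid culture. They share the estimate of the spread and are otherwise used only to set a change on agar beside that in liquid.

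Aspergillus oryzae is the filamentous fungus used to ferment rice and soybean, where it grows on solid grain and secretes large amounts of enzymes. All cultures used a modified CD medium with 2.0% glucose at pH 5.5, and no mutation or transgene is named for any group. Control mycelium was left for 40 h at 30 °C on a cellophane sheet laid over the agar. For treatment, the cellophane and its mycelium were placed on filter paper 2 cm thick that had taken up 20 mL of medium with 20 mmol/L DTT. The labels give no exposure time and describe no such transfer for the control, so the reducing agent and the move to filter paper cannot be told apart. In each condition the first library was made with inserts of 500 bp and the second with inserts of 200 bp. Nothing in the labels says that a pair of libraries came from separate cultures, so the p-values rest on the spread between libraries alone, and this may be technical. Read levels are given as CPM (reads scaled to library size), with TMM factors, and pairs of CPM are always in the order 500 bp library, 200 bp library.

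DTT reduces disulfide bonds. Secreted and membrane proteins form these bonds in the endoplasmic reticulum (ER), where the Hsp70 chaperone BipA, protein disulfide isomerase and calnexin assist their folding. When unfolded proteins gather there, fungi splice the hacA mRNA, and the transcription factor made from it raises genes of folding, transport and ER-associated degradation, which returns misfolded proteins to the cytosol. This is the unfolded protein response. In the cytosol, thioredoxin and glutathione keep protein thiols reduced.

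The 4 agar libraries held 6176818 and 8216798 reads in the control and 7314033 and 8912897 reads under DTT. Ribosomal RNA genes took 8.21% to 37.6% of these reads. Of 11880 locus tags in the files of the series, 9438 had reads enough over the 8 libraries to be tested. Pearson correlations of log2 CPM across tested genes, which are not independent replicates, were 0.932 between the control libraries and 0.925 between the DTT libraries. They were 0.769 to 0.810 between a control and a DTT library.

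The change was broad. In the edgeR quasi-likelihood test (Benjamini-Hochberg adjusted p under 0.05), 878 of the 9438 tested genes (9.3%) changed under DTT, 459 up (4.86%) and 419 down (4.44%). The reference table gives a symbol to 67 of the 878 and only a locus tag to the other 811 (92.4%), of which 441 rose and 370 fell. Of all tested genes 92.6% have no symbol, so the genes called are without a name about as often as the genes tested. Rising genes went from 0.746% and 0.914% of all CPM in the control libraries to 8.17% and 13.1% in the DTT libraries. Falling genes went from 5.72% and 7.93% to 0.726% and 1.16%. The DTT libraries lay beyond both control libraries in the direction of the change for each of the 878 genes, as they did, in either direction, for 5802 of all tested genes (61.5%).

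Rises were steeper than falls. The median log2 fold change was 3.28 among the rising genes and -2.74 among the falling ones, and 160 genes rose by at least 16-fold where 75 fell by as much. Among the genes called, the smallest log2 changes were 1.46 upward and -1.37 downward. Genes with a symbol were called up in 2.59% of 695 tested and down in 7.05%. Genes without a symbol were called up in 5.04% of 8743 and down in 4.23%. This difference was not tested. With the insert size entered as a replicate block, 1897 genes (20.1%) were called, 940 up (9.96%) and 957 down (10.1%), and they included all 878.

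The count of calls rested on having 2 libraries in each arm. It was 6 without the 500 bp control library, 23 without the 200 bp control library, 167 without the 500 bp DTT library and 85 without the 200 bp DTT library. The lone library of an arm is assumed in these fits to vary like the others. None of the 878 genes changed direction in any of the 4 fits in which it was tested. Since the libraries of the conditions did not overlap in any of these genes, leaving out 1 library could hardly reverse a sign. Of the 106 called genes named here by rule, 71 were called in none of the 4 fits and 2 in all 4. These 2 were AO090012000371, which rose, and AO090011000926, which fell. In 60 of the 106 the fold change moved by more than 1.5 times when 1 library was left out, and where such a gene is described below, the range over the 4 fits or the value that moved most is given.

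**Figure D1:**
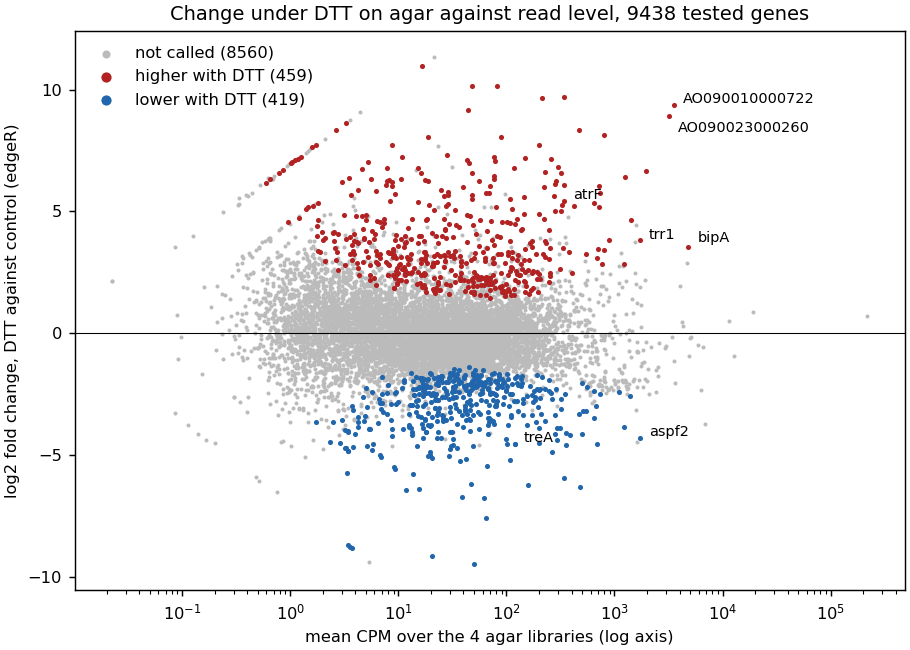
Log2 fold change of DTT over control on agar against the mean CPM of the 4 agar libraries (log axis) for 9438 tested genes; red points rose, blue points fell and grey points were not called. The points called reach higher above 0 than below it, with AO090010000722 and AO090023000260 rising at high read levels.

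The named genes of the ER were the check of the treatment. The gene bipA (AO090003000257), for the Hsp70 chaperone of the ER lumen, stood at 728 and 801 CPM in the controls and at 8440 and 9304 CPM under DTT. Both DTT libraries lay far above both control libraries, and its log2 fold change was 3.54 ± 0.78 (SE, n = 2 libraries each). Of 3 ER folding genes only bipA was called, and all 3 were called with the replicate block. Of all tested genes 4.86% were called up, and 9.96% with the block. The protein disulfide isomerase gene pdiA stood at 595 and 799 CPM in the controls and at 2867 and 3416 CPM under DTT. The calnexin gene clxA stood at 443 and 493 CPM and then at 2238 and 2985 CPM. The libraries of the conditions did not overlap in either gene, as in 61.5% of all tested genes, and the adjusted p was 0.0682 for pdiA and 0.0655 for clxA (edgeR quasi-likelihood test, Benjamini-Hochberg). The block fit gave 0.0199 and 0.0188. The hacA gene had 319 and 191 CPM in the controls and 475 and 392 CPM under DTT (0.76 ± 0.48) and was not called. Gene counts do not show its splicing. The gene ireA, listed with hacA as sensor of this response, went the other way. It had 169 and 176 CPM and then 71.8 and 80.7 CPM (-1.18 ± 0.38), and was called down with the block alone.

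Of 5 genes of ER-associated degradation and signal peptide cleavage 3 rose and none fell, where 4.86% of all tested genes rose. The median log2 fold change of this list was 1.87, where the median of all tested genes was -0.05. The gene derA, whose yeast relative Der1 takes misfolded proteins to the ER membrane for export, stood at 25.8 and 10.2 CPM in the controls and at 181 and 82.2 CPM under DTT. Its log2 fold change of 2.88 ± 0.59 lay between 2.19 without the 500 bp DTT library and 3.68 without the 500 bp control library. The ubiquitin ligase gene hrdA rose by 2.51 ± 0.46 and the signal peptidase gene sec11 by 1.87 ± 0.37. The other members, cdc48 at 1.27 ± 0.62 and npl4 at 0.05 ± 0.41, were not called. None of 7 genes of vesicle transport, 16 of the proteasome and 7 of cytosolic and mitochondrial chaperones was called, with medians of 0.59, 0.18 and -0.003. With the block 1 gene of these lists, the mitochondrial chaperone gene hsp78 (1.62 ± 0.50), was called.

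Among the genes without a symbol, 2 went from few reads to some of the largest counts under DTT. AO090010000722 stood at 4.47 and 16.8 CPM in the controls and at 5925 and 8260.0 CPM under DTT. Its log2 fold change was 9.38 ± 1.27, between 8.71 without the 500 bp control library and 10.64 without the 200 bp control library. AO090023000260 stood at 10.1 and 16.1 CPM in the controls and at 5042 and 7691 CPM under DTT, a log2 fold change of 8.92 ± 1.68. In both genes every DTT library lay far above every control library, with no overlap. The reference table names neither, and neither reference span overlaps that of another gene.

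Other unnamed genes with large numbers of reads rose from levels that were already well measured. AO090102000538 went from 31.3 and 46.3 CPM to 2965 and 4789 CPM (log2 fold change 6.64 ± 0.85). AO090023000039 went from 14.4 and 43.9 CPM to 1775 and 3202 CPM, and its log2 fold change of 6.41 ± 1.07 lay between 5.81 without the 500 bp and 7.44 without the 200 bp control library. AO090003000398 went from 128 and 88.8 CPM to 2097 and 3386 CPM (4.66 ± 0.84). In each of these genes the lower DTT library was many times the higher control library. AO090038000286 changed less, from 335 and 266 CPM to 2990.0 and 1294 CPM, with a log2 fold change of 2.83 ± 0.75 and an adjusted p of 0.0486 (edgeR quasi-likelihood test, Benjamini-Hochberg). Its fold change lay between 2.09 without the 500 bp and 3.39 without the 200 bp DTT library.

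The steepest rises began at or near 0 reads. AO090005000310 had no read in either control library and 27.4 and 38.4 CPM under DTT, which is at least 176-fold higher against a floor of 3 reads over both control libraries. Reads covered none of this gene in the controls and 97.6% and 96.7% of it under DTT, so they were not confined to a part of the gene. AO090005000216 had 1 read in the controls together and 58.7 and 132 CPM under DTT, a ratio of 1626 with an exact 95% binomial interval of 291 to 64253, which covers counting error only. The ratio was 1064 (294 to 8788) for AO090005000364, which reached 248 and 79.0 CPM. It was 624 (172 to 5153) for AO090012000371, which reached 109 and 66.1 CPM, and 321 (88.5 to 2654) for AO090010000721, which reached 21.4 and 53.2 CPM. In these 5 genes the control libraries held at most 2 reads each. Fitted log2 fold changes of such genes depend on the library left out. The value of AO090005000216 lay between 9.0 without the 200 bp and 12.56 without the 500 bp control library, and that of AO090012000371 between 7.95 and 12.44 without the same libraries. That of AO090005000364 lay between 9.10 without the 500 bp DTT library and 13.26 without the 200 bp control library, and that of AO090010000721 between 7.31 without the 200 bp DTT library and 11.11 without the 200 bp control library.

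Another 7 of the 14 steepest rises had a few more reads in the controls. AO090701000437 stood at 1.03 and 0.632 CPM in the controls and at 1014 and 360.0 CPM under DTT, with a log2 fold change of 9.69 ± 1.99 that lay between 8.75 without the 500 bp and 10.33 without the 200 bp DTT library. AO090701000429 stood at 0.344 and 0.632 CPM and then at 429 and 424 CPM (9.67 ± 1.40), the DTT libraries being almost equal. The neighbours AO090023000430 and AO090023000431 moved together. AO090023000430 went from 9.45 and 2.00 CPM to 2248 and 928 CPM (8.13 ± 1.64, from 7.35 without the 500 bp DTT library to 9.61 without the 500 bp control library). AO090023000431 went from 5.16 and 0.843 CPM to 1293 and 597 CPM (8.33 ± 1.60, from 7.54 without the 200 bp to 10.09 without the 500 bp control library). In both neighbours the 500 bp library was the higher one in each condition. AO090120000022 reached 99.4 and 257 CPM (8.07 ± 2.01, from 7.21 without the 200 bp to 9.61 without the 500 bp control library). AO090020000687 reached 701 and 89.5 CPM (7.74 ± 1.73, from 5.59 without the 500 bp to 8.64 without the 200 bp DTT library). AO090023000094 reached 64.0 and 48.6 CPM (7.31 ± 1.04, from 6.75 without the 200 bp to 7.95 without the 500 bp control library).

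**Figure D2:**
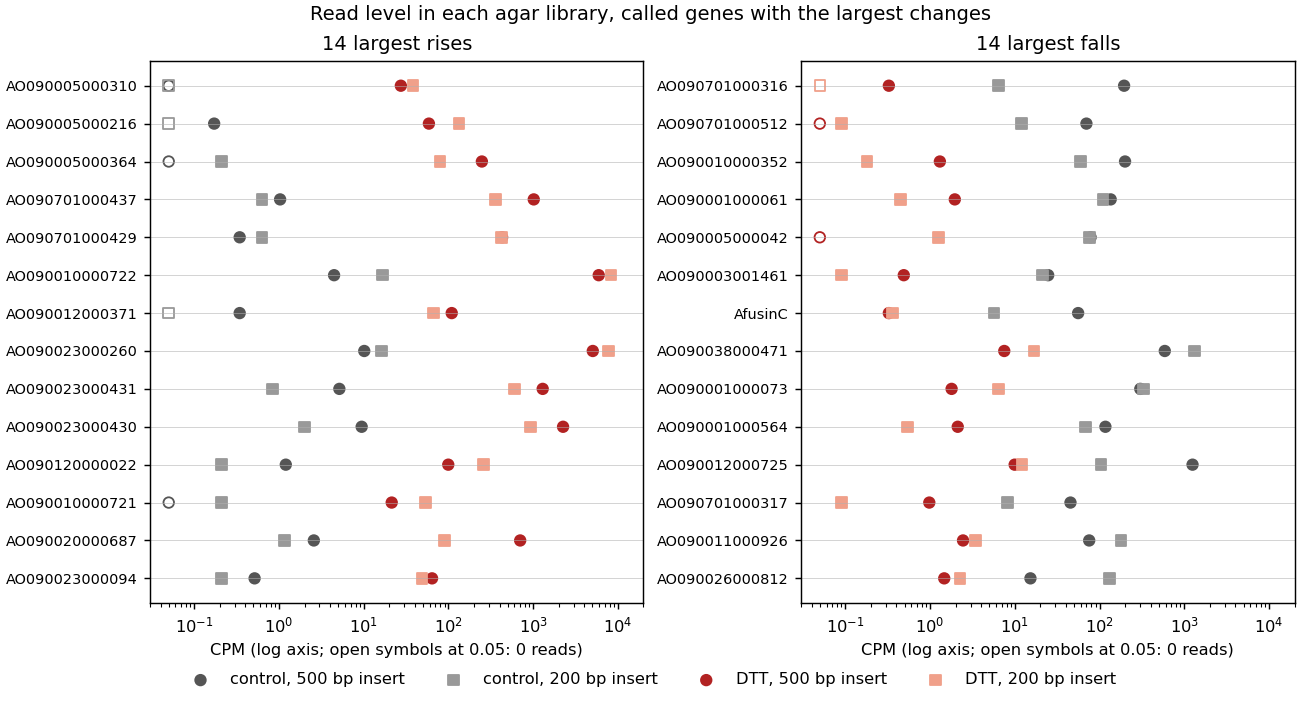
CPM on a log axis in each of the 4 agar libraries for the 14 steepest rises and 14 steepest falls among called genes whose higher condition reached 20 CPM; open symbols mark 0 reads. Rows were chosen among genes whose conditions did not overlap, so grey (control) and red (DTT) points are apart in every row. Falling genes such as AO090701000316 and AO090012000725 show a wide gap between the control libraries.

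Among the genes called, a small group was read under only 1 of the conditions. Tested genes that missed the threshold, such as AO090005000363 and AO090010000717, could also have 0 reads in both control libraries and were not counted. In all, 14 called genes had 0 reads in both control libraries and 3 had 0 reads in both DTT libraries. Besides AO090005000310, the rising ones with most reads were AO090026000220 (4.57 and 5.93 CPM under DTT, at least 27.8-fold higher), AO090005000519 (10.3 and 2.70 CPM, at least 27.5-fold higher), AO090010000720 (0.979 and 5.30 CPM, at least 19.2-fold higher) and AO090012000044 (4.08 and 2.88 CPM, at least 16.9-fold higher). The falling ones were AO090011000038 (13.1 and 1.90 CPM in the controls, at least 35.3-fold lower), AO090102000457 (11.5 and 2.63 CPM, at least 34.5-fold lower) and AO090011000037 (11.3 and 2.21 CPM, at least 32.7-fold lower). AO090011000037 and AO090011000038 are neighbours. The fitted log2 fold changes of these genes are no bounds, and several rested on 1 library. Without the 500 bp control library the value went from -8.83 to -6.93 for AO090011000038, from -8.75 to -7.40 for AO090102000457 and from -8.69 to -7.15 for AO090011000037. It went from 8.62 to 7.41 for AO090005000519 without the 500 bp DTT library and from 7.63 to 5.88 for AO090010000720 without the 200 bp DTT library. A count of 3 reads corresponds to 0.27 to 0.52 CPM in the agar libraries, so transcription below that level was not reliably detectable at this depth.

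The rising genes lay next to each other more often than tested genes in general. Of the 459 rising genes, 137 (29.8%) had a rising gene directly beside them in the gene order of the reference, where 7.76% of tested protein-coding genes had one. Of the 419 falling genes, 76 (18.1%) had a falling neighbour, where 7.36% of tested genes had one. There were 17 runs of at least 3 adjacent genes called in the same direction, 13 of rising and 4 of falling genes, with 57 genes between them. No reference span of a called gene overlapped that of another gene. Strand is not mentioned in the labels, so reads that run past a gene's end into its neighbour cannot be told apart by strand. The count of runs was 0 in each fit that left out 1 of the 4 agar libraries and 58 with the replicate block.

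The steepest run held the unnamed rising gene that gained the most reads. It begins with AO090010000722 and goes on through AO090010000721 and AO090010000720, described above, to AO090010000719, which had no read in the controls and 1.30 and 3.15 CPM under DTT (at least 12.7-fold higher). Its fitted log2 fold change of 7.13 was 6.29 without the 200 bp DTT library. Fitted log2 fold changes in this run lay between 7.13 and 9.38. Before the run, AO090010000723 (0.10 ± 0.94) and AO090010000724 (0.06 ± 0.42) were not called. Beyond them AO090010000725 went from 4.64 and 2.00 CPM to 115 and 126 CPM (5.19 ± 1.57) but missed the threshold (adjusted p = 0.0705, edgeR quasi-likelihood test, Benjamini-Hochberg). After the run, beyond an untested gene, AO090010000717 had no read in the controls and 3.10 and 2.70 CPM under DTT. It missed the threshold too (adjusted p = 0.0752, same test). All 4 genes of the run were also called up in liquid culture.

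A second run of 4 rising genes goes from AO090020000690 to AO090020000687. AO090020000690 rose from 1.72 and 1.37 CPM to 16.5 and 20.2 CPM (log2 fold change 3.57 ± 0.65), and AO090020000689 from 1.38 and 1.79 CPM to 13.2 and 18.1 CPM (3.28 ± 0.57). AO090020000688 rose from 0.515 and 1.79 CPM to 43.6 and 112 CPM (5.99 ± 1.40, from 5.25 without the 200 bp DTT library to 7.21 without the 200 bp control library). AO090020000687, described above, changed most, and the gene after it, AO090020000686, stood at 1.04 ± 0.63 and was not called. On the near side AO090020000691 stood at 1.61 ± 1.17 and was not called either.

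The third run goes from AO090124000015 to AO090124000012. AO090124000015 had 0 and 1.79 CPM in the controls and 37.4 and 152 CPM under DTT. Its log2 fold change of 6.56 ± 1.27 was 5.34 without the 200 bp DTT library and 12.45 without the 200 bp control library, which held all of its control reads. AO090124000014 rose from 3.61 and 9.79 CPM to 162 and 712 CPM (6.01 ± 0.97, from 4.67 without the 200 bp DTT library to 6.92 without the 200 bp control library). AO090124000013 (3.12 ± 0.62) and AO090124000012 (2.91 ± 0.57) rose less, and the next gene, AO090124000011, stood at -0.15 ± 1.03. In liquid culture 3 of these 4 genes were called up, and AO090124000012 was not (0.91).

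The other 10 rising runs were shorter or less steep. The run from AO090012000585 to AO090012000588 held 4 genes with log2 fold changes of 2.03 to 4.27. Of the runs of 3, that from AO090701000437 to AO090701000435 was the steepest (6.97 to 9.69), followed by that from AO090005000216 to AO090005000214 (4.00 to 10.16). In the first of these none was called in liquid culture. In the second 1 was, and the other 2 genes had 2 reads and 1 read in the 4 liquid libraries together. AO090023000260 belongs to a run with fos-1, the gene of a histidine kinase in Aspergillus fumigatus, and AO090023000262. The run from AO090010000615 to AO090010000612 begins with och3, of a mannosyltransferase family, and rose by 2.40 to 3.69 on agar, while its liquid values were between -1.30 and -0.73 and not called. The remaining runs begin at AO090011000220, AO090001000164, AO090003000248, AO090009000527 and AO090009000009.

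**Figure D3:**
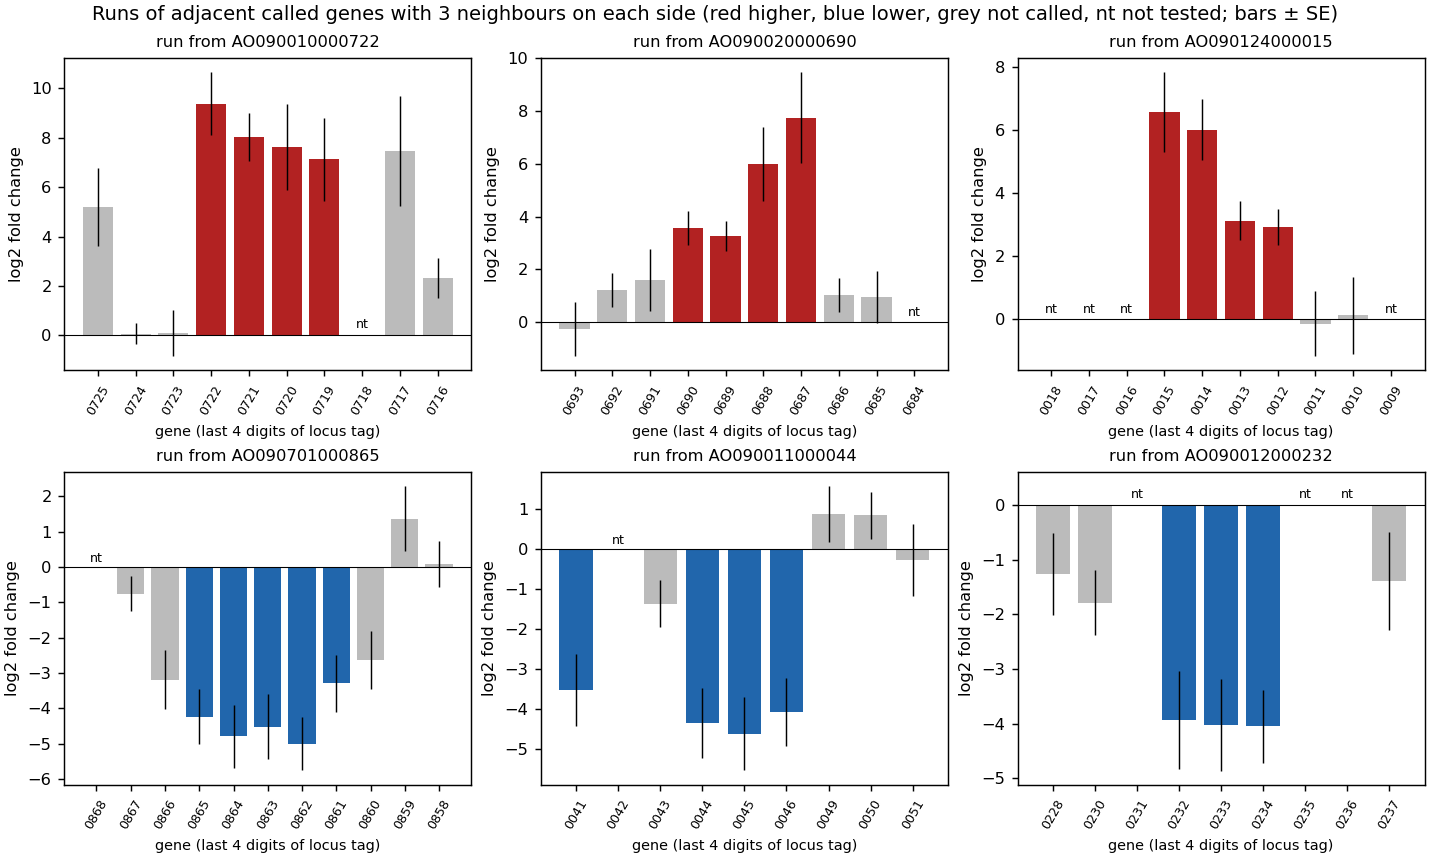
Log2 fold change ± SE of the members of 3 rising and 3 falling runs and of the 3 genes on each side in the reference's gene order (nt, not tested). Red and blue bars are genes called up and down, and the grey bars beside them, such as AO090010000724 and AO090010000723, were not called.

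Of the 18 rising genes with a symbol, the ABC transporter gene atrF changed most. ABC transporters of this kind export drugs and other small molecules in Aspergillus fumigatus. It stood at 11.2 and 19.2 CPM in the controls and at 649 and 675 CPM under DTT, a log2 fold change of 5.44 ± 0.65. Another ABC transporter gene, mdr1, rose from 30.2 and 51.7 CPM to 348 and 573 CPM (3.49 ± 0.71). In the list of 7 drug transport genes these 2 rose, mfsA fell and the median was 0.08. Of all tested genes 4.86% rose and 4.44% fell. The gene mfsA, of a major facilitator transporter, fell from 246 and 142 CPM to 5.22 and 11.4 CPM (-4.53 ± 0.59, from -5.14 without the 200 bp DTT library to -4.09 without the 500 bp control library).

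The thioredoxin reductase gene trr1, whose enzyme keeps thioredoxin reduced, stood at 199 and 258 CPM in the controls and at 3411 and 3000.1 CPM under DTT. It was the only 1 of 7 genes of thiol and peroxide defence called, beside 9.3% of all tested genes. With the block 3 of the 7 were called up, cat1 and sod2 being the others, and 2 down, glr1 and sod1 (-2.98 ± 1.13). The block called 20.1% of all tested genes. The catalase gene cat1 stood at 262 and 213 CPM and then at 1199 and 1406 CPM, and the superoxide dismutase gene sod2 at 162 and 417 CPM and then at 907 and 2176 CPM. The glutathione reductase gene glr1 stood at 153 and 187 CPM in the controls and at 52.1 and 65.2 CPM under DTT. The libraries of the conditions did not overlap in any of these 3 genes, as in 61.5% of all tested genes, and their adjusted p were 0.0526 for cat1, 0.0785 for sod2 and 0.0682 for glr1 (edgeR quasi-likelihood test, Benjamini-Hochberg).

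The formate dehydrogenase gene fdh rose from 9.79 and 15.8 CPM to 652 and 118 CPM, and its log2 fold change of 4.90 ± 0.90 was 3.19 without the 500 bp DTT library and 5.75 without the 200 bp one. The gene hxB, for molybdenum cofactor sulfurase in Aspergillus nidulans, rose from 29.4 and 25.9 CPM to 118 and 326 CPM (3.0 ± 0.59, from 2.17 without the 200 bp to 3.55 without the 500 bp DTT library). The gene rad7, for a yeast protein of DNA repair, rose from 19.4 and 27.5 CPM to 167 and 234 CPM (3.09 ± 0.52). The autophagy kinase gene atg1 rose from 32.8 and 25.5 CPM to 167 and 220 CPM (2.73 ± 0.47). Of 6 autophagy and vacuole genes only atg1 was called, and with the block atg2 (1.60 ± 0.63) was called too. Of all tested genes 9.3% were called, and 20.1% with the block. In the list of 10 secondary metabolism genes fgaCat, a catalase gene of the fumigaclavine cluster in Aspergillus fumigatus, rose (2.43 ± 0.59) and none fell. With the block 3 fell. The shares of all tested genes were 4.86% up, and 10.1% down with the block.

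The steepest falls ended at low read levels under DTT. AO090038000471 went from 588 and 1324 CPM in the controls to 7.51 and 16.8 CPM under DTT, a log2 fold change of -6.29 ± 1.09 that lay between -6.90 without the 200 bp DTT library and -5.57 without the 200 bp control library. AO090001000073 went from 302 and 328 CPM to 1.8 and 6.38 CPM (-6.23 ± 1.15, from -7.36 without the 200 bp to -5.63 without the 500 bp DTT library). AO090001000061 went from 135 and 110 CPM to 1.96 and 0.449 CPM (-6.76 ± 1.14, from -8.05 without the 500 bp to -5.88 without the 200 bp DTT library). The control libraries of AO090001000073 and AO090001000061 were close to each other, and the scatter was among the low DTT values. AO090005000042 went from 78.4 and 76.2 CPM to 0 and 1.26 CPM (-6.72 ± 1.15, from -12.08 without the 200 bp to -5.94 without the 500 bp DTT library). AO090011000926 went from 75.4 and 180 CPM to 2.45 and 3.42 CPM (-5.43 ± 0.61, from -5.93 without the 500 bp to -4.65 without the 200 bp control library). AO090001000564 went from 117 and 68.7 CPM to 2.12 and 0.539 CPM (-6.20 ± 0.77, from -7.40 without the 500 bp to -5.37 without the 200 bp DTT library).

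In several of the largest falls the control libraries differed from each other by a wide margin. AO090012000725 had 1250 CPM in the 500 bp and 104 CPM in the 200 bp control library, against 9.95 and 12.1 CPM under DTT. Its log2 fold change was -5.93 ± 1.12, and -3.25 without the 500 bp control library. AO090701000316 had 195 and 6.42 CPM in the controls and 2 reads in all under DTT, which gives a ratio of control to DTT of 673 (exact 95% binomial interval 186 to 5561). Its fitted log2 fold change was -9.48 and became -5.48 without the 500 bp control library. Its neighbour AO090701000317 had 45.4 and 8.21 CPM and then 0.979 and 0.0899 CPM (-5.79 ± 1.49, from -7.99 without the 500 bp DTT library to -4.07 without the 500 bp control library). AO090701000512 had 69.9 and 12 CPM in the controls and 1 read under DTT, a ratio of 587 (105 to 23232), and its fitted log2 fold change of -9.13 lay between -11.19 without the 200 bp DTT library and -7.40 without the 500 bp control library. AO090010000352 had 200 and 59.9 CPM and then 1.30 and 0.180 CPM (-7.59 ± 1.25, from -9.38 without the 500 bp DTT library to -6.46 without the 500 bp control library). The gene AfusinC had 55.9 and 5.69 CPM and then 0.326 and 0.359 CPM (-6.40 ± 1.69, and -3.99 without the 500 bp control library). The scatter ran the other way in AO090026000812, which had 15.3 and 130 CPM and then 1.47 and 2.25 CPM (-5.26 ± 1.01, and -3.0 without the 200 bp control library). The remaining member of the 14 steepest falls, AO090003001461, had 24.7 and 21.3 CPM and then 0.489 and 0.0899 CPM (-6.42 ± 0.84, from -7.78 without the 500 bp to -5.43 without the 200 bp DTT library).

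Other genes named for their loss in CPM had smaller fold changes. AO090010000666 went from 3378 and 1159 CPM to 246 and 67.9 CPM (log2 fold change -3.86 ± 1.0, from -5.07 without the 500 bp DTT library to -2.90 without the 500 bp control library). AO090003000121 went from 1704 and 3062 CPM to 330 and 473 CPM (-2.57 ± 0.64). AO090009000395 went from 1024 and 1343 CPM to 44.7 and 167 CPM (-3.48 ± 0.79, from -4.64 without the 200 bp to -2.84 without the 500 bp DTT library). The higher DTT library lay below the lower control library in each. AO090701000359 (-2.97 ± 0.67), AO090701000014 (-2.50 ± 0.64, from -2.95 without the 500 bp to -1.87 without the 200 bp control library) and cyp4 (-2.39 ± 0.56) also fell.

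**Figure D4:**
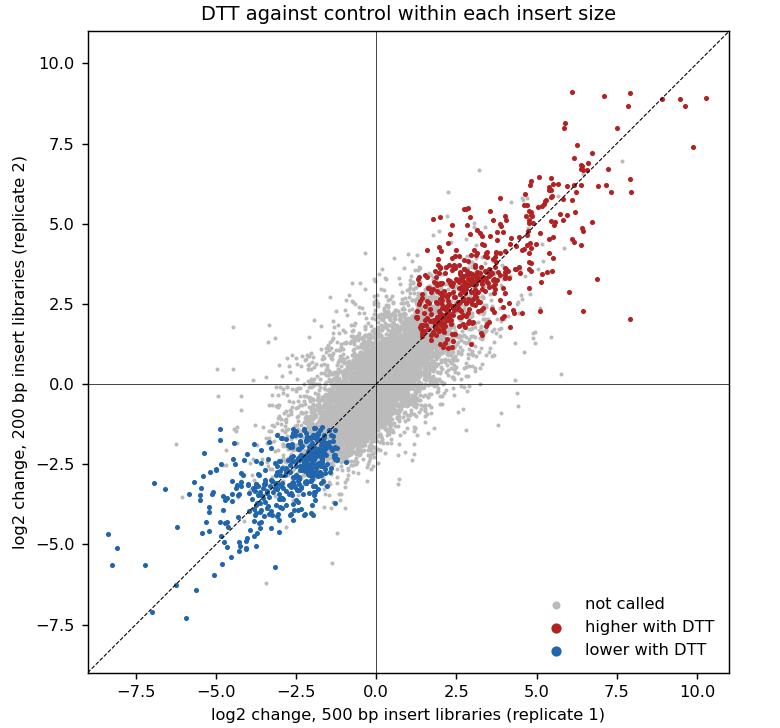
Change under DTT in the 200 bp libraries against that in the 500 bp libraries for all tested genes, as differences of log2 CPM with a prior count of 2; red points rose, blue points fell and grey points were not called. The called points lie towards the upper right and the lower left, and across genes, which are not independent replicates, Pearson's r was 0.82.

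The longest run of adjacent called genes fell. It comprises the 5 genes from AO090701000865 to AO090701000861, none with a symbol. AO090701000861 had the most reads of these, with 57.6 and 148 CPM in the controls and 4.08 and 16.6 CPM under DTT (log2 fold change -3.29 ± 0.82, from -4.55 without the 200 bp DTT library to -2.45 without the 200 bp control library). AO090701000862 went from 23.5 and 52.8 CPM to 0.979 and 1.35 CPM (-5.00 ± 0.76, from -5.48 without the 500 bp to -4.28 without the 200 bp control library). AO090701000865 went from 11.2 and 21.6 CPM to 1.14 and 0.629 CPM (-4.23 ± 0.77, and -3.65 without the 200 bp control library). In each of these genes the DTT libraries were below the lower control library. The fold change was -4.79 ± 0.88 for AO090701000864 (-5.84 without the 200 bp DTT library) and -4.51 ± 0.91 for AO090701000863, and reads of both were few under DTT. The genes on either side, AO090701000866 (-3.19 ± 0.83) and AO090701000860 (-2.63 ± 0.83), missed the threshold. In liquid culture AO090701000865, AO090701000864 and AO090701000863 had 0 reads, AO090701000862 had 2 and AO090701000861 had 4 over all 4 libraries. None was called there, and a change was not detectable at this depth.

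A falling run of 3 goes from AO090011000044 to AO090011000046. AO090011000044 went from 105 and 16.8 CPM to 2.28 and 3.59 CPM (log2 fold change -4.34 ± 0.87, and -2.50 without the 500 bp control library). AO090011000045 went from 45.4 and 12 CPM to 0.816 and 1.44 CPM (-4.61 ± 0.91, and -3.38 without that library). AO090011000046 went from 91.9 and 20.9 CPM to 4.73 and 2.07 CPM (-4.07 ± 0.85, and -2.65 without that library). In all 3 genes the 500 bp control library was several times the 200 bp one, and both lay above the DTT libraries. In liquid culture their fold changes were -0.23 to 0.19, with none called. AO090011000037, AO090011000038 and AO090011000041 (-3.51 ± 0.89), a short way before it in gene order, fell too.

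The run from AO090012000232 to AO090012000234 fell, with log2 fold changes of -3.93 ± 0.89, -4.03 ± 0.84 and -4.05 ± 0.67 in gene order. AO090012000234 had the most reads, with 49.8 and 18.4 CPM in the controls and 1.30 and 2.70 CPM under DTT, and its value was -3.18 without the 500 bp control library. Without that library AO090012000232 stood at -2.74 and AO090012000233 at -3.44, and the latter stood at -5.10 without the 200 bp DTT library. All 3 genes were also called down in liquid culture. The fourth falling run, from AO090026000727 to AO090026000725, changed least (-1.97 to -1.52).

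Genes of iron uptake and siderophores fell in part. Siderophores are small iron chelators that aspergilli secrete or keep inside the cell, and transporters bring the iron-loaded forms back. Of 12 tested genes 5 fell and none rose, where 4.44% of all tested genes fell. The median log2 fold change was -2.77, where that of all tested genes was -0.05. With the block 9 fell, where 10.1% of all tested genes did. The transporter gene sit1 had 499 and 340 CPM in the controls and 38.4 and 30.4 CPM under DTT (-3.61 ± 0.51). The related gene sit2 had 710 and 622 CPM and then 53.4 and 24.4 CPM (-4.10 ± 0.93, from -4.78 without the 500 bp to -3.56 without the 200 bp DTT library). The siderophore transporter gene mirB had 25.6 and 24.6 CPM and then 0.489 and 2.16 CPM (-4.16 ± 0.91, from -5.55 without the 200 bp to -3.54 without the 500 bp DTT library). The control libraries were alike in sit2 and mirB and less so in sit1, and in all these transporter genes every DTT library lay far below the controls. The genes of the iron regulators, sreA at 0.65 ± 0.40 and hapX at -0.55 ± 0.41, were not called, and neither was the transporter gene mirC (0.40 ± 0.51).

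Several siderophore genes lie beside each other in a stretch of 6 genes singled out after its values were seen, of which 3 fell and 3 missed the threshold. In gene order they are sidJ, AO090103000169, sidH, sidD, AO090103000166 and mirD. The gene sidJ, for a siderophore hydrolase in Aspergillus fumigatus, had 83.2 and 52.0 CPM in the controls and 4.08 and 1.17 CPM under DTT (log2 fold change -4.72 ± 0.96, from -5.84 without the 500 bp to -3.97 without the 200 bp DTT library). AO090103000169 had 8.76 and 4.53 CPM and then 0 and 0.180 CPM, and fell as well. Its fitted log2 fold change (-5.72 ± 1.13) rests on a count under the floor of 3 reads in the DTT libraries. The transporter gene mirD had 127 and 127 CPM and then 12.7 and 7.91 CPM (-3.63 ± 0.95). Between them sidH (-3.89 ± 1.08, adjusted p = 0.0547) and the nonribosomal peptide synthetase gene sidD (-1.72 ± 0.69, adjusted p = 0.142) missed the threshold (edgeR quasi-likelihood test, Benjamini-Hochberg), and both were called with the block. AO090103000166 stood at -0.53 ± 0.75 and was not called.

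Of 5 zinc uptake genes 2 neighbours fell and none rose, where 4.44% of all tested genes fell. The zinc transporter gene zrfC had 1891 and 725 CPM in the controls and 75.1 and 36.5 CPM under DTT (-4.55 ± 0.88, from -5.17 without the 500 bp DTT library to -3.71 without the 500 bp control library). Beside it lies aspf2, for a secreted protein that in Aspergillus fumigatus is made under zinc shortage, with 4591 and 1968 CPM and then 276 and 55.8 CPM (-4.30 ± 1.02, from -5.89 without the 500 bp to -3.50 without the 200 bp DTT library). Both control libraries were above both DTT libraries by a wide margin. The other 3 zinc genes stood above 0 and were not called, with zrfA at 1.46 ± 0.70, zrfB at 1.05 ± 0.51 and zrfD at 0.41 ± 0.55.

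Of 13 amino acid synthesis genes 4 fell and none rose, where 4.44% of all tested genes fell. The median was -0.80, against -0.05 for all tested genes. The isopropylmalate dehydrogenase gene leu2A, of leucine synthesis, had 346 and 422 CPM in the controls and 12.9 and 20.8 CPM under DTT (-4.51 ± 0.64). The dihydroxyacid dehydratase gene ilv3, of valine and isoleucine synthesis, had 232 and 393 CPM and then 27.9 and 32.7 CPM (-3.37 ± 0.60). The lysine synthesis genes lysB, for homoisocitrate dehydrogenase (-3.34 ± 0.54, and -2.67 without the 200 bp control library), and lys9, for saccharopine dehydrogenase (-2.70 ± 0.55), fell too. Among the others arg2 (-0.26 ± 0.54), argB (-0.19 ± 0.95) and his3 (-0.44 ± 0.43) were not called. In sulfur assimilation and methionine salvage, again beside 4.44% of all tested genes, 2 of 4 genes fell, with a median of -2.40. These were the ATP sulfurylase gene sC, with 405 and 760.0 CPM and then 35.6 and 43.5 CPM (-3.88 ± 0.58), and mde1 (-1.98 ± 0.49), for a yeast enzyme of methionine salvage.

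Genes of sterol and isoprenoid synthesis moved in both directions. Of 17 genes 1 rose and 4 fell, beside 4.86% and 4.44% of all tested genes, and the median was -1.46. With the block 8 fell, beside 10.1% of all tested genes. The rising gene was erg8, for phosphomevalonate kinase, with 85.6 and 70.0 CPM in the controls and 246 and 280 CPM under DTT (1.76 ± 0.43). The gene of the next enzyme of the pathway, mvd1, fell (-1.63 ± 0.42), as did idi1, for the isomerase after it, which had 142 and 134 CPM and then 25.0 and 22.6 CPM (-2.54 ± 0.42). The sterol genes erg24B (-2.74 ± 0.55) and erg2 (-2.40 ± 0.59) also fell, whereas erg9, for squalene synthase, stood at 0.02 ± 0.46 and was not called.

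Carbohydrate genes fell in part. The trehalase gene treA had 207 and 249 CPM in the controls and 8.16 and 11.1 CPM under DTT (-4.55 ± 0.58), and the glucokinase gene glkA had 385 and 290.0 CPM and then 50.1 and 90.0 CPM (-2.27 ± 0.50). The other 3 of these 5 genes were not called, where 4.44% of all tested genes fell, and the median of the list was -0.57. In protein glycosylation 1 of 9 genes rose, where 4.86% of all tested genes rose. This was och3, from 1.55 and 1.47 CPM to 12.7 and 16.7 CPM (3.27 ± 0.50). There pmi1, for phosphomannose isomerase, fell from 135 and 194 CPM to 38.8 and 35.3 CPM (-2.15 ± 0.46), and the median was -0.13. Of 23 cell wall genes only agm1, whose yeast enzyme acts in making the precursor of chitin, was called, from 214 and 213 CPM to 51.6 and 47.9 CPM (-2.10 ± 0.46). This is near the 4.44% of all tested genes called down. The peptidase gene dppIV fell (-3.52 ± 0.65, from -4.25 without the 200 bp to -3.04 without the 500 bp DTT library) and lap1, the other peptidase of that list, stood at -1.66 ± 0.50 and was called with the block alone.

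None of 5 genes of cytosolic ribosomal proteins was called, although all stood between -2.12 and -1.76, and with the block 1 fell. For rps1 the controls had 4031 and 3696 CPM and the DTT libraries 1259 and 1028 CPM, and 61.5% of all tested genes were likewise without overlap. Of 21 ribosome assembly genes 20 stood below 0, with a median of -0.88, where 4887 of the 9438 tested genes stood below 0. Only rex4 was called (-2.01 ± 0.50), again a share near that of all tested genes called down. Of 9 spore formation genes flbD, for a regulator of conidiation in Aspergillus nidulans, fell (-2.29 ± 0.59), and flbB (-1.07 ± 0.38) was called with the block too. The regulator gene brlA stood at 0.75 ± 0.57. Of 9 cell division genes none was called, and with the block 2 fell. The shares of all tested genes called down were 4.44%, and 10.1% with the block.

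**Figure D5:**
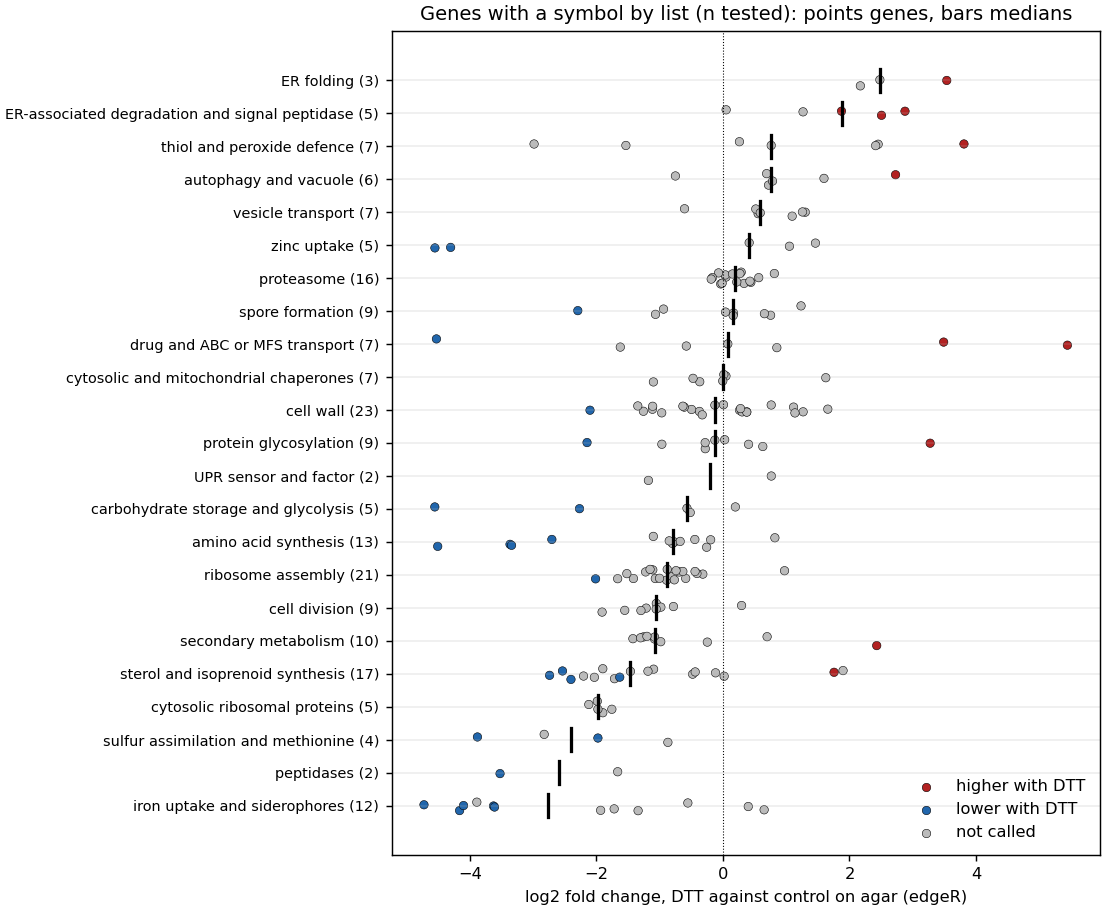
Log2 fold change on agar of the tested members of 23 gene lists, ordered by the list's median; red points rose, blue points fell, grey points were not called and a bar marks each median. Iron uptake and siderophores (median -2.77) lies at the low end and ER folding (median 2.48) at the high end.

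None of the 5 protein-coding genes with the most reads was called. AO090120000080 had 9771 and 23630 CPM in the controls and 5466 and 11890 CPM under DTT (-0.94 ± 0.89), the conditions overlapping. The glyceraldehyde-3-phosphate dehydrogenase gene gpdA had 7853 and 7842 CPM and then 7629 and 2955 CPM (-0.57 ± 0.82). AO090003000661 had 10588 and 8472 CPM and then 18584 and 8185 CPM (0.49 ± 0.99). In AO090102000558 libraries of the same condition differed by several times while the conditions did not overlap, with 23931 and 1908 CPM in the controls and 1702 and 240 CPM under DTT (-3.73 ± 1.71, and -0.98 without the 500 bp control library). AO090003000383 had a like gap between insert sizes, and its conditions overlapped, with 18516 and 2375 CPM and then 3843 and 373 CPM (-2.31 ± 1.87, and -0.18 without that library). The last pair was called with the block, at adjusted p of 0.0175 and 0.0452 (edgeR quasi-likelihood test, Benjamini-Hochberg).

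Around the threshold, the smallest changes called belonged to genes whose libraries agreed closely. AO090701000199 had 66.2 and 64.6 CPM in the controls and 26.8 and 24.0 CPM under DTT (-1.37 ± 0.36), and AO090003000498 had 37.6 and 37.1 CPM and then 102 and 104 CPM (1.46 ± 0.38). AO090003001312, AO090003000440 and AO090003000860 fell, with log2 fold changes of -1.46, -1.50 and -1.51. Among genes not called, AO090005000363, the neighbour of AO090005000364, had no read in the controls and 53.2 and 32.2 CPM under DTT, which is at least 202-fold higher, at an adjusted p of 0.0550 (edgeR quasi-likelihood test, Benjamini-Hochberg). AO090120000504 had 0.344 and 0.211 CPM and then 30.7 and 27.3 CPM (6.68 ± 1.86). AO090020000479 had 3 reads in the controls and 68.0 and 24.4 CPM under DTT, a ratio of 204 (exact 95% binomial interval 69.5 to 991). In AO090011000134 (2.12 and 123 CPM under DTT) and AO090113000132 (9.95 and 368 CPM) the rise lay mainly in the 200 bp library.

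Much of the change on agar had the same direction in shaken liquid culture. Of the 459 genes that rose on agar 427 had a positive fold change in liquid and 273 (59.5%) were called up there, and of the 419 that fell 385 were negative and 247 (58.9%) called down. Liquid culture gave 1885 calls (20% of tested genes), with 841 of the 9438 tested genes up and 1044 down. The shared genes were 32.5% of these rises and 23.7% of these falls. The share of all tested genes with a like sign in both cultures was not counted. Across all tested genes, which are not independent replicates, Pearson's r of the changes on agar and in liquid was 0.64. Only sit1 was called in opposite directions, -3.61 ± 0.51 on agar and 2.74 ± 0.49 in liquid, and it is named here after its values were seen. The difference of these effects, -6.35 ± 0.71, had an adjusted p of 0.0799 (edgeR quasi-likelihood test, Benjamini-Hochberg). By the same test the difference between the cultures was called for 0 of the 9438 genes (0%), with 1002 at an unadjusted p under 0.05, for 211 by DESeq2 and for 23 with the block. So a change called on agar and not in liquid is not shown to be limited to agar. Among the steep rises, AO090023000430 stood at 8.13 on agar and -0.34 in liquid, and the adjusted p of that difference was 0.211.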

How the data were processed

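The deposited files give, per the file headers, the number of mapped reads of each gene (counts, used as deposited) and its fraction of coverage by reads (shown in percent). Messenger RNA was selected with oligo-dT, cDNA was primed at random, and each fragment was read for 44 bp at either end, per the labels' protocols. The aligner, genome build, annotation and handling of reads that map to several places are, in the sources used here, not given, so genes with a near-identical copy may be miscounted. All 11880 locus tags matched the RefSeq table of assembly ASM18445v3, which gives symbols to 714 and was used for names and gene order only. No sequence was used.

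The tests used edgeR 4.0.16 (R 4.3.3) after filterByExpr with a minimum count of 10 and TMM scaling. A single quasi-likelihood model (glmQLFit, then glmQLFTest) covered all 8 libraries, with a coefficient for each of the 4 conditions and thus 4 residual degrees of freedom. The common biological coefficient of variation was 0.469. SEs were derived as the ratio of log2 fold change to the square root of F. Calls are Benjamini-Hochberg adjusted p-values under 0.05 over 9438 genes. Depth sets precision: 3 reads equal 0.27 to 0.52 CPM (with TMM factors) in the agar libraries, and bounds and intervals cover counting error only. In 21 genes with at most 8 reads over 90% of the gene was covered in all 4 agar libraries, so their counts and coverage disagree.

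Replicate numbers coincide with insert size, which makes the pairs. The differences between replicate 1 and 2 correlated at 0.24 to 0.512 between conditions. The fit with this replicate block is printed where it changes a call. Replicates differed beyond sampling noise (on agar, chi-square over degrees of freedom was 219 to 246), so they were kept apart.

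Named were the 14 largest rises and 14 largest falls among called genes with at least 20 CPM in the higher condition and a like sign in every pairing of a DTT with a control library. The 8 largest rises and falls in CPM and the 8 among genes with a symbol were added, as were up to 5 called genes per direction with 0 reads in 1 condition and up to 4 called members of each of 23 gene lists. The rule also took the 3 longest runs per direction, bipA, hacA, pdiA and clxA, the 5 genes with most reads and 5 genes on each side of the threshold. The members and lists were chosen with earlier results of these data known. Planned lists for starch breakdown and kojic acid were left out. The reference table gives the starch genes no symbol to match. The kojic acid genes were set by locus tag and could have been listed, but are not described here. Alternatives were DESeq2 1.42.0, other scalings and filters, the agar libraries alone, the block and each agar library left out.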

Additional observations from a re-analysis of the deposited data

How the results depend on the processing

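Direction held for each of the 878 called genes under every alternative in which it was tested. The libraries of the conditions did not overlap in any of these genes, so refits of the same counts could hardly reverse a sign. The count of 878 (459 up, 419 down, 811 without a symbol, 17 runs) stayed within 1.5 times with RLE size factors, without rRNA genes, without a filter on low counts, with at least 50 reads in 2 libraries and on the 4 agar libraries alone, except that the last gave 740 rises and 28 runs and no filter gave 26 runs. DESeq2 called 1672 (888 up, 784 down, 1552 without a symbol, 49 runs). Pairing the libraries by the replicate block called 1897 (940 up, 957 down, 1756 without a symbol, 58 runs). With 1 agar library left out, 6 to 167 genes were called, 2 to 137 up, 4 to 30 down and 6 to 160 without a symbol, with 0 runs (0 to 0). Differences from liquid culture among the named genes, 0 in the main test, were called for 21 by DESeq2, 2 without a filter and 4 with the block; over all genes no filter gave 26. Both reversals concerned genes not called: with 1 library left out AO090003000661 ranged from -0.230 to 1.040 and gpdA from -1.421 to 0.039, reversed without the 500 bp and the 200 bp DTT library respectively. The cause of these shifts was not tested. The median of all tested genes moved from -0.05 to -0.02 with RLE factors and 0.01 without rRNA genes. With 2 libraries per condition, low counts limit what could be called. The files hold counts, so limma on normalized values did not apply.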

Other observations

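Other genes with a symbol that fell on agar, singled out after their values were seen, belong to no list above. The adenylosuccinate lyase gene ade13 (log2 fold change -2.75) and the adenylosuccinate synthetase gene adB (-3.29) fell, both of purine synthesis in yeast and aspergilli. The orotidine phosphate decarboxylase gene pyrG (-2.98) and the uridylate kinase gene ura6 (-1.96) fell. The gene pyr2 rose (2.44), and its symbol alone does not tell its pathway. The septin genes aspC (-2.13) and aspE (-4.84) fell, and reads of aspE were few under DTT, with a mean of 0.180 CPM. The gene agd3, for an enzyme that in Aspergillus fumigatus deacetylates a cell surface polysaccharide, fell on agar (-3.30) and stood at -0.38 in liquid culture, where it was not called. The glycerol dehydrogenase gene gldB (-3.33) fell, as did the isopropylmalate isomerase gene luA (-2.27), whose enzyme acts before that of leu2A in leucine synthesis. The palmitoyltransferase gene akr1 (-2.95) and dph5 (-2.75), of diphthamide synthesis in yeast, fell as well. These calls are from the edgeR quasi-likelihood test, Benjamini-Hochberg adjusted over all tested genes.

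The share of genes called grew with the read level. It was 2.37% of 1011 genes with a mean under 2 CPM over the 4 agar libraries, 10.3% of 3428 genes between 10 and 50 CPM and 14.7% of 490 genes from 250 CPM. Coverage moved with counts. Reads covered a median of 49.9% and 79.0% of a rising gene in the control libraries and 94.2% and 99.5% under DTT, while over all tested genes the medians were 81.5% and 96.9% and then 80.8% and 97.4%.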
